A study of Rattus norvegicus with 24 samples.

Results

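Mitochondria make only a few of their own proteins, and the rest are built in the cytosol and carried in across the mitochondrial membranes. The genes described here encode that import machinery and the proteins that shape the folded inner membrane (cristae), in myocardium of Sprague-Dawley rats whose mitral valve had been made to leak. They were taken as every gene in the deposited tables whose symbol begins with Timm, Tomm or Chchd, plus Immt, Samm50, Mtx1, Mtx2, Apoo, Apool, Pmpca, Pmpcb, Grpel1 and Pam16. That rule found 38 genes among the 10129 listed in all 4 tables, and each of the 38 was listed in every table and passed the filter on low values in every comparison.

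Mitral regurgitation (MR) was produced by perforating a leaflet of the valve through a left chest incision, and Sham rats had the operation with the leaflet left whole. Bulk RNA was sequenced from MR rats 2 weeks (4 libraries), 10 weeks (5), 20 weeks (5) and 40 weeks (5) after surgery, and from Sham rats 2 weeks after surgery (5). Because every Sham library is from 2 weeks, time with MR and the age of the rats cannot be told apart at 10, 20 and 40 weeks, while comparisons between MR groups contrast no Sham library but still hold time and age together. The Sham libraries do enter the fit behind those comparisons, through its estimate of the spread and the common scale. The labels give neither sex, age, heart chamber nor batch and do not say that each library is a separate animal, so a p-value measures the spread between these libraries. Libraries held 7.69 to 12.1 M reads on listed genes. Of 15 cardiomyocyte markers, 14 were listed (Ttn was not), and their summed level ran from 33688 to 62984 normalised counts over the 24 libraries. A fall in a bulk sample cannot be told apart from fewer cells of the type that makes the transcript.

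Precursor proteins enter through the TOM complex of the outer membrane, whose receptors (TOM20, TOM22 and TOM70) hand them to the TOM40 channel. Proteins with a cleavable presequence pass on through the TIM23 channel, pulled by an Hsp70 motor, and the matrix peptidase removes the presequence. Carrier proteins of the inner membrane are escorted across the intermembrane space by small TIM chaperones to the TIM22 complex, and outer membrane barrels are inserted by SAM50 with the metaxins. The MICOS complex, built around mitofilin (the product of Immt), holds the necks of the cristae open. The heart, which runs almost wholly on oxidative metabolism, is rich in all of these.

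The promoters of 34 of the 38 genes were present in the RefSeq promoter table (build GRCr8), each 300 bases long from 250 bases before the transcription start. Nuclear genes for mitochondrial proteins are known to be regulated by NRF1 and by the ETS-family factor GABP, so the letters of their core motifs were searched on both strands, with overlapping matches counted. The NRF1 core GCGCANGCG was present in 6 of 34 promoters (17.6%), against 13.9% of promoters of genes listed in every table and 6.46% of all rat promoters. The ETS core CCGGAAG was present in 14 of 34 (41.2%), against 18.5% and 9.63%. Of the members with a promoter, the ETS core was present in 1 of 2 that rose at 40 weeks, 6 of 18 that fell and 7 of 14 that did not pass, and the NRF1 core in 0, 3 and 3 of them. Shown here are the promoters of the TOM gene with the largest rise at 40 weeks (Tomm70), the TOM gene with the largest fall (Tomm7), a small TIM chaperone that fell by more than any other with an ETS core (Timm10), and a receptor that was high at 20 weeks and low at 40 weeks (Tomm20). They lie at chr11:56886227-56886526 on the minus strand, chr4:12197253-12197552 on the plus strand, chr3:90314889-90315188 on the plus strand and chr19:71832371-71832670 on the minus strand (GRCr8). Capitals mark the letters of a motif on either strand.
Tomm70: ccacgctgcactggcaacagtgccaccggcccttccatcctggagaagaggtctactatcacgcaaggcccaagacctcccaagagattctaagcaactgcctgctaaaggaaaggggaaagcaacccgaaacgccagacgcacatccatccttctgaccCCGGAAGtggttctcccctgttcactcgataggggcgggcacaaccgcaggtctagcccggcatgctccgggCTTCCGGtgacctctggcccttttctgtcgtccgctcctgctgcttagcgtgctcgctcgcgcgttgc
Tomm7: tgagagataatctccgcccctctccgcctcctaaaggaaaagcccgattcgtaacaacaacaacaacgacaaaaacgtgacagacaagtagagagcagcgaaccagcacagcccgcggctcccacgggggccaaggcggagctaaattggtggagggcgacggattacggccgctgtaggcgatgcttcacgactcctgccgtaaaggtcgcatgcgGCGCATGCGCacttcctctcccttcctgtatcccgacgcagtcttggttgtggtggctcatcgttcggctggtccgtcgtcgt
Timm10: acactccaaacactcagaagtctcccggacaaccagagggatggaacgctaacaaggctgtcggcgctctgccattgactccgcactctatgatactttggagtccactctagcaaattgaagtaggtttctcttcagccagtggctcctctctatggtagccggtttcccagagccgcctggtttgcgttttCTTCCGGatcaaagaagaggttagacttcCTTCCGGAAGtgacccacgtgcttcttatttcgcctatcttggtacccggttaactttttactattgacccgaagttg
Tomm20: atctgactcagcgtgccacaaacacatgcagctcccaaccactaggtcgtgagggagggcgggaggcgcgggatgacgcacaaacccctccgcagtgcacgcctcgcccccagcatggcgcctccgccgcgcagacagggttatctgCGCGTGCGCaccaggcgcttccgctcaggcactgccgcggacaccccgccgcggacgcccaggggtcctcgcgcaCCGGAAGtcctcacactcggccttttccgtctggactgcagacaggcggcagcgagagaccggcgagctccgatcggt
Tomm70 holds the ETS core at 2 places, on opposite strands. Tomm7 holds the NRF1 core as a palindrome, which counts as 2 matches, and no ETS core. Timm10 holds the ETS core 3 times, 2 of them in a palindrome, and Tomm20 holds each core once.

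The question at each time was how the transcripts of this machinery differed between MR and Sham hearts. At 40 weeks, 4 of the 38 genes rose and 19 fell, and 15 did not pass (limma on log2(value + 1), adjusted p under 0.05 over all genes tested). Of all 10094 genes tested, 16.3% rose and 30.9% fell, so the members' share of rises (10.5%) was below and their share of falls (50%) above that background. With edgeR on recovered reads the share of falls was nearer the background, at 26.3% of members and 20.8% of all genes. The median log2 fold change of the members was -0.35, against -0.15 over all genes. The 4 that rose were Tomm70, Immt, Timm29 and Tomm40l, and the falls were spread over 7 of the 9 roles the genes were sorted into. In 17 members the 5 MR libraries lay wholly outside the range of the 5 Sham libraries, 4 above and 13 below, against 29.2% of all genes.

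**Figure D1:**
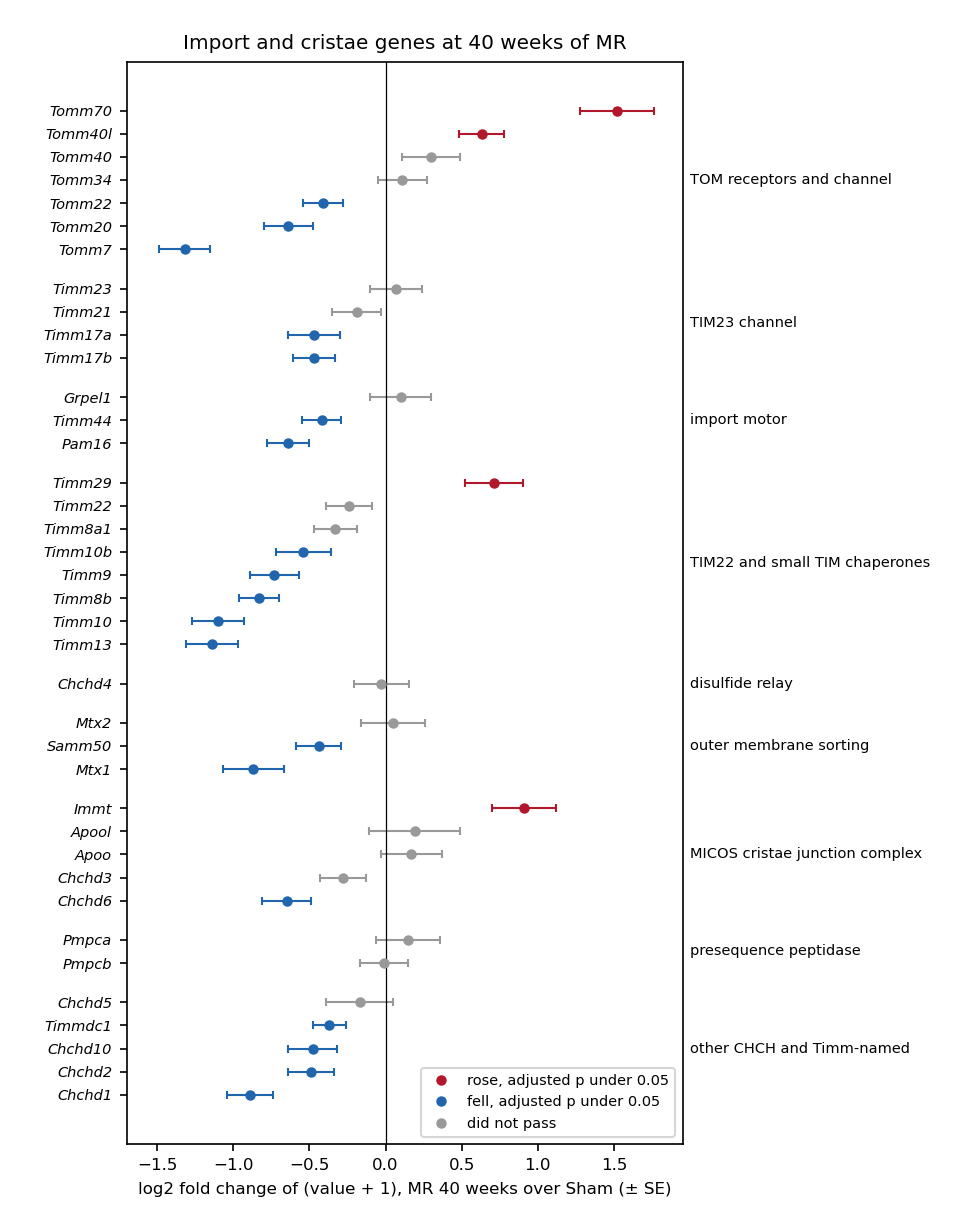
Log2 fold change of log2(value + 1) at MR 40 weeks over Sham, with its standard error, for each of the 38 genes grouped by role (n = 5 libraries each). Red points rose, blue points fell and grey points did not pass; Tomm70 at 1.52 and Tomm7 at -1.32 are the ends of the range, and both belong to the TOM complex.

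The Tomm-named genes held the ends of the range, with 2 of the 7 risen, 3 fallen and 2 not past the threshold. Tomm70 (chr11:45477053-45511099, minus strand, rn6) encodes the receptor that takes carrier precursors from cytosolic chaperones. It had 20.1, 20.3, 12.6, 23.4 and 19.5 normalised counts in MR libraries 1 to 5 at 40 weeks, against 7.45, 4.41, 3.06, 6.33 and 10.6 in Sham libraries 1 to 5. Every MR library was above every Sham library, with MR library 3 the lowest of its group and Sham library 5 the highest of its own. Tomm70 averaged 19.2 ± 3.99 in MR and 6.36 ± 2.90 in Sham hearts (SD, n = 5 each), a ratio of 3.01 and a log2 fold change of 1.52 ± 0.24 (SE, limma adjusted p = 0.000407). Tomm40l (chr13:89591917-89594607, minus strand), a paralog of the channel gene, had 3.13, 4.35, 3.49, 5.17 and 3.74 normalised counts in MR libraries, against 2.76, 1.83, 1.74, 2.29 and 2.36 in Sham libraries. The groups did not overlap, and the log2 fold change was 0.63 ± 0.15 (adjusted p = 0.00392). Tomm40l had as few as 14 reads in a library, so its fold change is understated on the log2(value + 1) scale, and the ratio of its means was 1.81.

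Tomm7 (chr4:7835949-7842791, plus strand), which encodes a small subunit that steadies the TOM complex, fell by the largest amount of any member. It had 20, 16, 26.5, 17.1 and 14.3 normalised counts in MR libraries at 40 weeks, against 42.7, 64.8, 49.8, 38.5 and 44.5 in Sham libraries. The highest MR value, in library 3, was still below the lowest Sham value. The ratio of means was 0.39 and the log2 fold change -1.32 ± 0.17 (adjusted p = 0.000182). Tomm20, the receptor for presequences, also fell without overlap, with 39.8 to 56.7 in MR and 64.1 to 109 in Sham hearts (-0.64 ± 0.16, adjusted p = 0.00538). Tomm22, the central receptor, averaged 32.5 ± 4.14 in MR and 43.4 ± 4.55 in Sham hearts (-0.41 ± 0.13, adjusted p = 0.0165), and lost its call under median-ratio rescaling, in the fit of all 24 libraries together and with edgeR. Tomm40, the channel itself (0.30 ± 0.19, adjusted p = 0.212), and Tomm34, a cytosolic co-chaperone (0.11 ± 0.16, adjusted p = 0.591), did not pass.

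The small TIM chaperones and their TIM22 partner complex had 5 falls and 1 rise among 8 genes. Timm13 (chr7:11677340-11678444, plus strand), whose product pairs with the Timm8 proteins, had 33.7, 21.7, 38.9, 29.3 and 20.1 normalised counts in MR libraries, against 71.8, 64.6, 61, 58 and 58.9 in Sham libraries. Timm10 (chr3:72226613-72230087, plus strand), whose product forms a ring with that of Timm9, had 23.2, 20.4, 27.4, 21.7 and 15.2 in MR libraries, against 59.5, 55.8, 36.5, 38.7 and 46.5 in Sham libraries. Timm8b (chr8:55037750-55039132, plus strand) had 85.3, 71.6, 89.5, 79.9 and 64.5 in MR libraries, against 164, 149, 122, 138 and 127 in Sham libraries. In all of these 3 genes the highest MR library was library 3 and the lowest was library 5, and no MR library reached the Sham range. Their log2 fold changes were -1.14 ± 0.17 for Timm13 (adjusted p = 0.000273), -1.10 ± 0.17 for Timm10 (adjusted p = 0.000368) and -0.83 ± 0.13 for Timm8b (adjusted p = 0.00041). Timm9 fell as well (-0.73 ± 0.16, groups apart), and so did Timm10b (-0.54 ± 0.18), which has 34 reads in its lowest library and lost its call when any 1 of 5 libraries was left out and under 3 other settings.

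Timm29 (chr8:22625874-22628844, plus strand), which encodes a subunit of the TIM22 complex found in animals, moved the other way. It had 49.5, 52.1, 53.3, 57.7 and 51.6 normalised counts in MR libraries at 40 weeks, against 36.2, 22.3, 21.9, 40.2 and 45.9 in Sham libraries. The MR libraries were tightly grouped and all above the Sham libraries, which spread more than 2-fold. The log2 fold change was 0.71 ± 0.19 (adjusted p = 0.00768). Timm29 overlaps Yipf2, which lies on the opposite strand, and the strand setting of the counting is not given in the sources used here, so reads of these genes cannot be told apart. The same holds for Timm10b with Echs1 and Sbk1, Timm17b with Pcsk1n and Tomm40 with Sbk1, which overlap on either strand. Timm22, the channel of that complex, and Timm8a1 did not pass (-0.24 ± 0.15 and -0.33 ± 0.14, adjusted p = 0.209 and 0.0635).

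Of the TIM23 route, 2 of 4 channel genes and 2 of 3 motor genes fell, and none rose. The paralogous channel subunits Timm17a and Timm17b both fell by 0.47 on the log2 scale (SE 0.17 and 0.14, adjusted p = 0.0406 and 0.0146); MR and Sham libraries overlapped in both, and Timm17a lost its call when any 1 of 6 libraries was left out and under 4 other settings, and Timm17b with edgeR. Timm23, the channel core, and Timm21, which links it to the TOM complex, did not pass (0.067 ± 0.17 and -0.19 ± 0.16). Pam16, a regulator of the motor's ATPase, had 24, 22.2, 26.8, 22.4 and 18.3 normalised counts in MR libraries, against 43.3, 33.7, 29.1, 35.1 and 39 in Sham libraries. No MR library reached the lowest Sham library, and the log2 fold change was -0.64 ± 0.14 (adjusted p = 0.00205). Pam16 overlaps Ubald1 on the same strand. Timm44, which tethers the motor to the channel, averaged 54.2 ± 6.42 in MR and 72.9 ± 7.66 in Sham hearts (-0.42 ± 0.13, adjusted p = 0.0139), a call lost under median-ratio rescaling and with edgeR. Grpel1, the nucleotide exchange factor of the motor, did not pass (0.10 ± 0.20). Pmpca and Pmpcb, the subunits of the presequence peptidase, did not pass either (0.15 ± 0.21 and -0.011 ± 0.16), nor did Chchd4, the oxidoreductase that folds small intermembrane proteins (-0.027 ± 0.18).

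Of the cristae genes, Immt rose and Chchd6 fell, and the other 3 MICOS genes did not pass. Immt (chr4:99753553-99789282, plus strand), which encodes the core of the MICOS complex, had 68, 65.1, 58.7, 92 and 65.7 normalised counts in MR libraries at 40 weeks, against 43.7, 27.5, 22.7, 41 and 55.9 in Sham libraries. The highest Sham library, number 5, was just below the lowest MR library, number 3. The log2 fold change was 0.91 ± 0.21 (adjusted p = 0.0036). Chchd6, a MICOS subunit that binds mitofilin, had 4.58, 3.64, 3.65, 2.33 and 3.28 in MR libraries, against 7.29, 5.85, 5.92, 6.87 and 4.28 in Sham libraries (-0.65 ± 0.16, adjusted p = 0.00559). MR library 1 and Sham library 5 overlapped, and the ratio of means was 0.579. Chchd3, another MICOS subunit that binds mitofilin, averaged 114 ± 19.8 in MR and 138 ± 19.5 in Sham hearts and did not pass (-0.28 ± 0.15, adjusted p = 0.147). Apoo and Apool, the apolipoprotein-like MICOS subunits, did not pass (0.17 ± 0.20 and 0.19 ± 0.30).

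Of the outer membrane sorting genes, Mtx1 and Samm50 fell. Mtx1, a metaxin, had 7.75, 5.31, 6.85, 7.3 and 3.45 normalised counts in MR libraries, against 13.5, 15.8, 11.9, 8.04 and 10.6 in Sham libraries. The groups were apart by a small margin, MR library 1 against Sham library 4, and the log2 fold change was -0.87 ± 0.20 (adjusted p = 0.00338). Samm50, the barrel that inserts other barrels, averaged 161 ± 27.5 in MR and 218 ± 24.1 in Sham hearts (-0.44 ± 0.15, adjusted p = 0.0231), and the call was lost without MR library 1 or 5 or Sham library 1 or 4, and under 3 other settings. Mtx2, the other metaxin, had 17.7 to 28.8 in MR and 11.4 to 28.3 in Sham hearts (0.05 ± 0.21) and did not pass.

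The remaining genes carry the twin-cysteine CHCH fold or a Timm name without being part of the import channels, and 4 of these 5 fell. Chchd1, a protein of the small mitochondrial ribosomal subunit, had 17.1, 16, 25.4, 19.7 and 14.8 normalised counts in MR libraries, against 34.5, 36.6, 31.5, 41.1 and 31.4 in Sham libraries (-0.89 ± 0.15, adjusted p = 0.000458). Its highest MR library, number 3, was below the lowest Sham library. Chchd10 and Chchd2 encode paralogs of the intermembrane space. Chchd10 averaged 482 ± 79.4 in MR and 665 ± 65 in Sham hearts (-0.48 ± 0.16, adjusted p = 0.0231), a call lost without MR library 1 or 5 or Sham library 2 and under 3 other settings. Chchd2 averaged 359 ± 35.6 in MR and 508 ± 87.6 in Sham hearts (-0.49 ± 0.15, adjusted p = 0.017), and lost its call in the fit of all 24 libraries and with edgeR. In both genes the groups did not overlap. Timmdc1, an assembly factor of respiratory complex I, fell by 0.37 ± 0.11 on the log2 scale (adjusted p = 0.0176), a call lost under 4 of 8 other settings. Chchd5, a gene with 21 reads in its lowest library, did not pass (-0.17 ± 0.22).

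The counting of reads shared with near-identical copies is not given in the sources used here. RefSeq names pseudogene copies for 13 of the 38 genes, among them 6 for Chchd2, 4 for Tomm7, 2 for Tomm20 and 1 for Tomm70, so the counts of these genes are uncertain to that extent. The Chchd2 row of the tables lies at chr9:101106896-101388820 (rn6), a span of 282 kb, whereas RefSeq places Chchd2 on another chromosome in its later build and a copy, Chchd2l3, on the chromosome of that row. The Chchd2 values are therefore those of the row that carries the symbol.

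With every library of the 4 tables on a common scale (median-ratio rescaling), 4 genes had all 5 MR libraries at 40 weeks below all 19 other libraries. These were Tomm7 (17.3 to 28.2 at 40 weeks, 35.6 to 65.5 elsewhere), Timm10 (18.4 to 29.2, against 35.7 to 61.2), Timm13 (24.4 to 41.4, against 43.1 to 76.5) and Timm8b (78.1 to 95.4, against 98.5 to 170). Timm29 (53.5 to 63.8, against 16.4 to 48.1) and Tomm40l (3.37 to 5.71, against 0.682 to 3.25) had all 5 above. That is 4 of 38 members below and 2 of 38 above, against 3.59% and 7.61% of all genes. Tomm70 and Immt missed the count through MR library 5 at 20 weeks, which had 14.3 and 69 normalised counts, above the 13.4 and 62.5 of MR library 3 at 40 weeks.

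**Figure D2:**
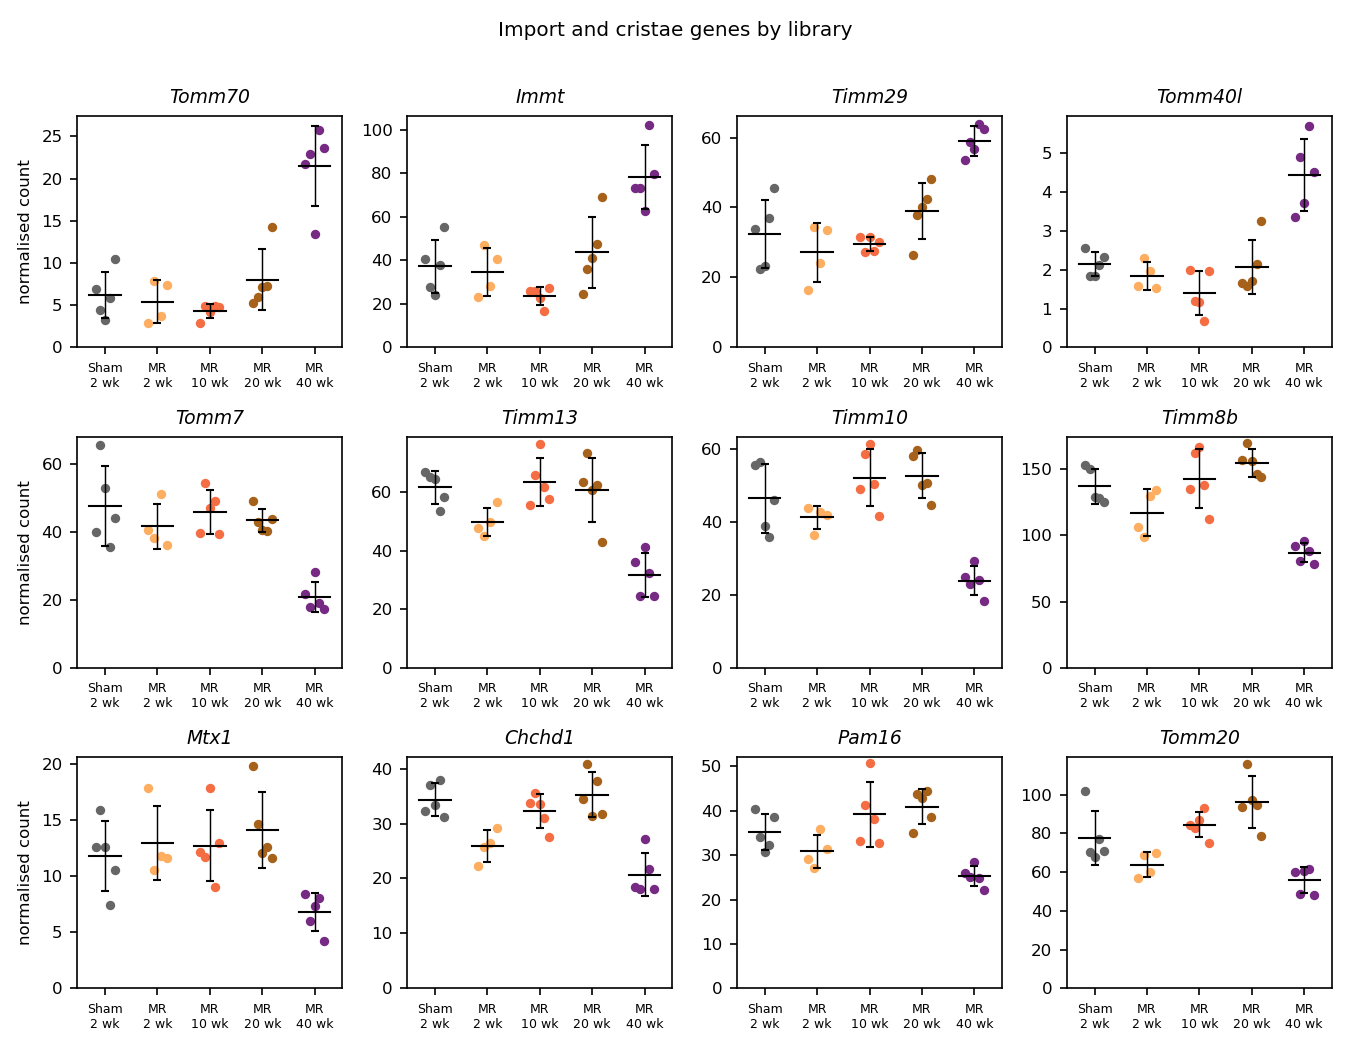
Normalised counts of 12 genes in each library on the common scale, by group; points are libraries, bars are means with SD (n = 4 for MR 2 weeks, 5 otherwise). The 4 genes of the top row have their highest mean at 40 weeks and the other 8 their lowest.

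Along the series, Tomm70 averaged 6.19 ± 2.76 normalised counts in Sham hearts, then 5.43 ± 2.54, 4.32 ± 0.849, 7.98 ± 3.61 and 21.5 ± 4.78 in MR hearts at 2, 10, 20 and 40 weeks (SD, n = 5, 4, 5, 5 and 5). Immt averaged 37.2 ± 12.3 in Sham, then 34.7 ± 11.1, 23.6 ± 4.29, 43.7 ± 16.4 and 78.1 ± 14.5 in MR hearts. Tomm7 averaged 47.5 ± 11.9 in Sham, then 41.5 ± 6.71, 45.8 ± 6.43, 43.3 ± 3.51 and 20.8 ± 4.44 in MR hearts. The Sham libraries (3.24 to 10.5 for Tomm70, 24.1 to 55.3 for Immt and 35.6 to 65.5 for Tomm7) overlapped with MR libraries at 2, 10 and 20 weeks and with none at 40 weeks. Among the earlier MR groups, Tomm70 had 2.88 to 4.87 at 10 weeks and 5.28 to 14.3 at 20 weeks, a difference that was not tested.

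At 2 weeks no member passed and no gene of the 10173 tested did (0%); 3 members and 556 genes had an unadjusted p under 0.05, edgeR called 0 genes and DESeq2 called 65, none of them a member. Even so, 37 of 38 members had a fold change below 0, with a median of -0.27 against -0.07 over all genes, of which 37.8% were above 0. Chchd1 came closest, with 22.4 to 30 normalised counts in MR and 32.6 to 42.8 in Sham hearts (-0.48 ± 0.14, adjusted p = 0.616), followed by Timm13 (-0.39 ± 0.14, adjusted p = 0.793) and Chchd2 (-0.42 ± 0.19, adjusted p = 0.84). Chchd1 and Timm13 were the 2 members whose groups did not overlap, against 2.16% of genes. MR library 1 stood apart: the mean log2 level of the members, less the Sham mean, was -0.53 there and -0.14 to -0.0032 in the other 3 MR libraries, with -0.24 to 0.18 in Sham libraries. Without that library the median was -0.17 and again no member passed. Complex I genes (1 of 44 above 0, median -0.31) and mitochondrial ribosomal protein genes (0 of 69 above 0, median -0.27) leaned the same way as the members. In the same comparison 14 of 14 cardiomyocyte markers were below 0 (median -0.26) and 9 of 9 macrophage markers above 0 (median 0.36), none of them past the threshold; the summed macrophage level was 148 to 245 in MR and 102 to 218 in Sham hearts. Atrial (1 of 6 above 0, median -0.41), erythroid (1 of 6, median -0.33) and lymphocyte markers (0 of 3, median -0.28) were mostly below 0 too. Endothelial markers were above 0 in 3 of 10 (median -0.093), fibroblast in 6 of 10 (median 0.13) and smooth muscle and pericyte in 7 of 10 (median 0.066). Adipocyte (3 of 3, median 0.053) and skeletal muscle markers (1 of 2, median 0.076) were few, and none of these passed the threshold. The part of these in the members' direction was not tested.

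At 10 weeks no member passed, against 0.168% of genes, and 18 of 38 were above 0 (median -0.0023, against 0.06 over all genes). Immt had the smallest p, with 17.9 to 30.5 normalised counts in MR and 23.5 to 57.3 in Sham hearts (-0.53 ± 0.21, adjusted p = 0.351), then Chchd2 (0.39 ± 0.17, adjusted p = 0.379) and Tomm40l (-0.38 ± 0.19, adjusted p = 0.454). Pmpca was the upper end (0.40 ± 0.21). No member had groups apart, against 2.45% of genes, and 2 members had an unadjusted p under 0.05 with limma, 3 with edgeR and 4 with DESeq2, none past adjustment.

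At 20 weeks again no member passed, against 0.0698% of genes, and no member had an unadjusted p under 0.05 with limma, against 2 with edgeR and 3 with DESeq2. The fold changes leaned upward, with 31 of 38 above 0 (49.4% of all genes) and a median of 0.17 against -0.0027 over all genes. Without Sham library 3 the members' median was 0.06. Complex I genes were above 0 in 25 of 44 (median 0.021) and mitochondrial ribosomal protein genes in 56 of 69 (median 0.13). Cardiomyocyte (10 of 14, median 0.10), atrial (5 of 6, median 0.22) and adipocyte markers (3 of 3, median 0.21) were mostly above 0. Endothelial (1 of 10, median -0.28), fibroblast (2 of 10, median -0.28), macrophage (2 of 9, median -0.31), erythroid (1 of 6, median -0.71) and lymphocyte markers (0 of 3, median -0.22) were mostly below. Smooth muscle and pericyte (4 of 10, median -0.014) and skeletal muscle markers (1 of 2, median 0.25) were mixed. No marker passed the threshold, and their part in the members' direction was not tested. Apool was the upper end, with 9.51 to 19.5 normalised counts in MR and 4.45 to 18.2 in Sham hearts (0.64 ± 0.31, adjusted p = 0.543). Chchd10 (0.27 ± 0.13, adjusted p = 0.561) and Chchd2 (0.31 ± 0.16, adjusted p = 0.59) followed, and Tomm7 was the lower end (-0.11). None had groups apart, against 1.8% of genes. The 4 comparisons with Sham share the same 5 Sham libraries, so their fold changes are not independent of each other.

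**Figure D3:**
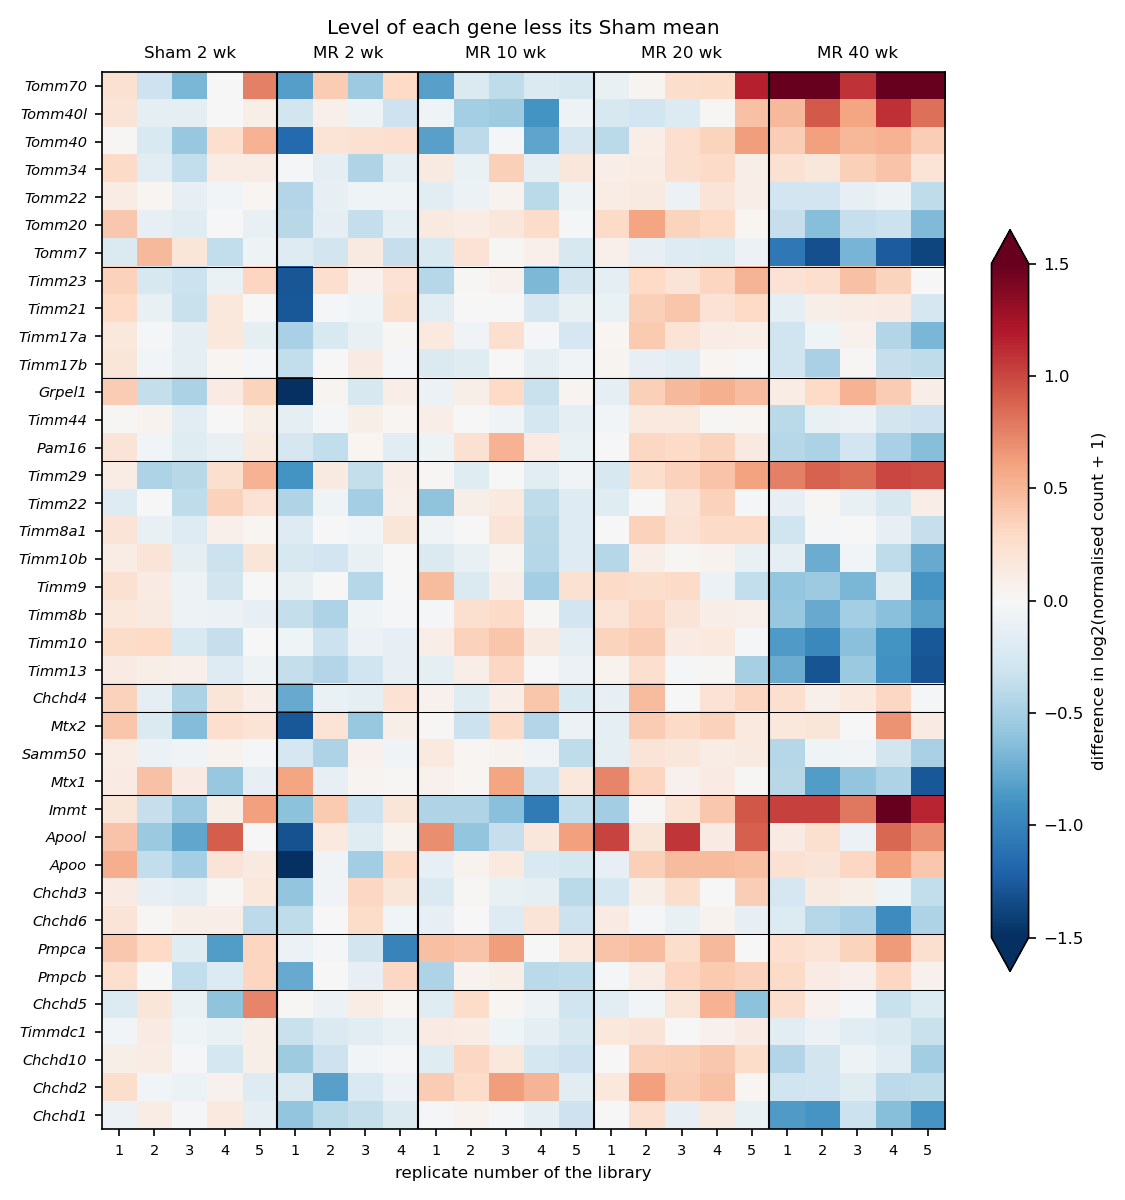
Log2(normalised count + 1) of each gene in each of the 24 libraries less its mean in Sham, on the common scale; rows are genes grouped by role, columns are libraries by group, and colours are limited to 1.5 either way. The columns of MR 40 weeks hold the reds of Tomm70, Immt and Timm29 and the blues of Tomm7, Timm10 and Timm13, and MR 2 weeks library 1 is blue in many rows.

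Comparisons between MR groups asked whether the transcripts kept changing while the leak persisted. Between 20 and 40 weeks 4 members rose and 18 fell, against 21.3% and 17.6% of genes, and the median member changed by -0.29 against 0.0057 for all genes. The risers were Tomm70 (1.37 ± 0.27, adjusted p = 0.000348), Immt (0.88 ± 0.24, adjusted p = 0.00508), Tomm40l (0.84 ± 0.17, adjusted p = 0.00051) and Timm29 (0.61 ± 0.19, adjusted p = 0.0126). The largest falls were those of Timm10 (-1.11 ± 0.14, adjusted p = 6.3e-06), Tomm7 (-1.04 ± 0.15, adjusted p = 1.88e-05), Mtx1 (-0.97 ± 0.20, adjusted p = 0.000582) and Timm13 (-0.92 ± 0.14, adjusted p = 4.23e-05). Tomm20 had 48.2 to 61.4 normalised counts at 40 weeks and 78.6 to 116 at 20 weeks (-0.77 ± 0.12, adjusted p = 3.95e-05). The other falls, from -0.30 to -0.83, were those of Timm8b, Timm8a1, Timm9, Timm17a, Timm44, Pam16, Samm50, Tomm22, Chchd1, Chchd2, Chchd6, Chchd10 and Timmdc1. Of the 22 calls, 20 held under every alternative run. In the same comparison complex I genes had 3 rises and 31 falls among 44 (median -0.57). Mitochondrial ribosomal protein genes had 3 rises and 42 falls among 69 (median -0.50).

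Against MR at 10 weeks, 6 members rose and 11 fell at 40 weeks (28.1% and 26.2% of genes). Tomm70 (2.07 ± 0.27, adjusted p = 2.13e-06), Immt (1.68 ± 0.24, adjusted p = 5.1e-06) and Tomm40l (1.20 ± 0.17, adjusted p = 5.59e-06) rose most, and Tomm40, which did not pass against Sham, rose as well. It had 18 to 21.5 normalised counts at 40 weeks and 7.4 to 13.4 at 10 weeks (0.93 ± 0.24, adjusted p = 0.00234). Tomm7 (-1.11 ± 0.15, adjusted p = 3.24e-06) and Timm10 (-1.09 ± 0.14, adjusted p = 1.71e-06) fell most, and Timm13, Timm8b, Timm9, Mtx1, Pam16, Tomm20, Chchd1, Chchd2 and Chchd6 fell by less. Timm29 (0.97 ± 0.19) and Pmpcb (0.39, adjusted p = 0.0482) completed the rises. The Pmpcb call was lost when any 1 of 8 of the 10 libraries was left out and with edgeR, and that of Chchd6 when either of 2 libraries was. Complex I genes had 3 rises and 22 falls among 44 there, and mitochondrial ribosomal protein genes 9 and 33 among 69. Cardiomyocyte markers had 5 rises and 2 falls among 14, endothelial 1 and 3 among 10, and fibroblast 0 and 2 among 10. Macrophage markers had 0 and 5 among 9, erythroid 0 and 4 among 6, smooth muscle and pericyte 2 and 4 among 10, atrial 1 and 2 among 6, and adipocyte 0 and 3 among 3. Against MR at 2 weeks, 9 members rose and 8 fell (24.3% and 21.3% of genes). Tomm70 (1.87), Immt (1.18), Timm29 (1.15) and Tomm40l (0.93) rose, and Tomm7 (-0.97), Mtx1 (-0.85), Timm10 (-0.77), Timm13, Timm8b, Timm9, Chchd1 and Chchd6 fell. Timm9 lost its call when any 1 of 7 of the 9 libraries was left out, Chchd1 when any 1 of 6 was, and Chchd6 when either of 2 was; Chchd1 and Chchd6 lost theirs in the fit of the 2 groups alone too. The rises there also took in Apoo (0.82 ± 0.25), Grpel1 (0.74 ± 0.26), Pmpca (0.68 ± 0.21), Mtx2 (0.61 ± 0.24) and Tomm34 (0.47 ± 0.13), genes that did not pass against Sham. MR library 1 at 2 weeks had the lowest value of Apoo (7.35), Grpel1 (21.8) and Mtx2 (7.49) among all 24 libraries, and without it these 3 genes lost their calls, with fold changes of 0.44, 0.32 and 0.32. Mtx2 lost its call when any 1 of 6 libraries was left out, and Pmpca without MR 2 weeks library 4. These 3 comparisons share the 40-week libraries. Complex I genes had 5 rises and 22 falls among 44 against MR at 2 weeks, and mitochondrial ribosomal protein genes 11 and 24 among 69. Cardiomyocyte markers had 6 rises and 1 fall among 14, endothelial 1 and 4 among 10, and fibroblast 1 and 5 among 10. Macrophage markers had 0 and 6 among 9, smooth muscle and pericyte 2 and 1 among 10, atrial 1 and 0 among 6, and adipocyte 0 and 1 among 3. The part of these lists in the members' changes was not tested.

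Between 2 and 20 weeks of MR, 8 members rose and none fell, against 4.01% and 4.81% of genes, and 37 of 38 were above 0 (median 0.35, against -0.0071). Tomm20 had 78.6 to 116 normalised counts at 20 weeks and 57.1 to 69.6 at 2 weeks (0.57 ± 0.13, adjusted p = 0.00816). Chchd2 (0.66 ± 0.16, adjusted p = 0.0142), Chchd1 (0.43 ± 0.12, adjusted p = 0.0344), Chchd10 (0.51 ± 0.15, adjusted p = 0.0363), Timm8b (0.41 ± 0.12, adjusted p = 0.037), Timmdc1, Pam16 and Pmpca were the others. The count moved with the fit and with single libraries. When the 2 groups were fitted alone, 1 member passed. Without MR 20 weeks library 2, 3, 4 or 5 the count was 2, 3, 2 or 5, and without MR 2 weeks library 1, 2 or 3 it was 2, 5 or 5. These counts were not always of the same genes. Without MR 2 weeks library 2, Chchd1, Chchd2, Chchd10, Pam16, Timm8b and Timmdc1 lost their calls. Leaving out each of the 9 libraries in turn cost Chchd2 its call 1 time, Chchd1 and Timm8b 5, Chchd10 6, Pam16 and Pmpca 7 and Timmdc1 8. Only Tomm20 kept its call under every alternative. Without MR 2 weeks library 1 the median was 0.25. Complex I genes (42 of 44 above 0, 2 rises, median 0.25) and mitochondrial ribosomal protein genes (69 of 69 above 0, 10 rises, median 0.30) moved the same way as the members. Cardiomyocyte markers did too, with 13 of 14 above 0 (median 0.28) and 1 past the threshold. Of the macrophage markers 9 of 9 were below 0 (median -0.69, none past the threshold). Of 10 fibroblast markers 4 fell past the threshold (median -0.44), as did 1 of 10 endothelial markers (median -0.32). Atrial markers were above 0 in 5 of 6 (median 0.74), smooth muscle and pericyte in 1 of 10 (median -0.18) and erythroid in 1 of 6 (median -0.42). Adipocyte (2 of 3, median 0.13), lymphocyte (2 of 3, median 0.048) and skeletal muscle markers (1 of 2, median 0.11) were few. None of these 6 lists had a marker past the threshold. The summed atrial level ran from 91.8 to 1236 at 2 weeks and from 303 to 1449 at 20 weeks of MR. The part of these in the members' rise was not tested.

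Over all genes, the fold change at 40 weeks varied with the span of the gene on the chromosome (rn6). The members' medians departed from those of all genes mostly in the longest of 4 bins, which held 7 members. Over all genes tested, the median log2 fold change against Sham in 4 bins of about equal size was -0.38 in the shortest (up to 8.73 kb), then -0.20, -0.073 and 0.08 in the longest (over 50.7 kb). Spearman's rho of fold change with span was 0.29 across the 38 members and 0.33 across 10094 genes, as a description, since genes of a library are not independent. The members' medians in the same bins were -0.44, -0.22, 0.067 and -0.28, so the members placed in the longest bin by these spans did not follow the other genes there. In the shortest bin 10 of 18 members and 47.7% of all genes fell, and 2 of 18 members and 7.05% of all genes rose. In the longest bin 3 of 7 members and 16.4% of all genes fell, and 0 of 7 members and 28.2% of all genes rose. The members that fell there were Chchd2, Timm17b and Chchd6. Chchd2 is in the longest bin through a 282 kb row on a chromosome other than the one RefSeq gives. The 108 kb row of Timm17b overlaps Pcsk1n. Spans of all genes in the longest bin ran up to 130313 kb, and the contrast there rests in part on such spans. Timm13 (1.1 kb), Chchd1 (1.18 kb), Timm8b (1.38 kb), Timm10 (3.47 kb) and Tomm7 (6.84 kb) are all in the shortest bin, but so are Tomm40l (2.69 kb) and Timm29 (2.97 kb), which rose. Tomm70 (34 kb) and Immt (35.7 kb) are in the third bin, and Chchd6 (224 kb), which fell, is in the longest.

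The same contrast can be read in each library from the genes that are not members, as the median level of the longest bin less that of the shortest, both taken less the Sham mean. It was 0.45, 0.51, 0.21, 0.56 and 0.65 (log2) in MR libraries 1 to 5 at 40 weeks, and -0.17 to 0.15 in the other 19 libraries. MR library 3, with the lowest value at 40 weeks, was also the library with the lowest Tomm70 and the highest Tomm7, Timm10, Timm13 and Timm8b of its group. Sham library 5 and MR library 5 at 20 weeks had the highest value of their groups (0.087 and 0.10), and each had the highest Tomm70 and Immt of its group. In the other groups this was not so: MR 10 weeks library 1 had the highest value of its group (0.00035) and the lowest Tomm70 (2.88). MR 2 weeks library 1 also went the other way, with the highest value of its group (0.15) and the lowest Tomm70 and Immt, and at 40 weeks MR library 5 had the highest value while MR library 4 had the highest Tomm70 and Immt. The part of this shift between long and short genes in the members' fold changes was not tested.

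**Figure D4:**
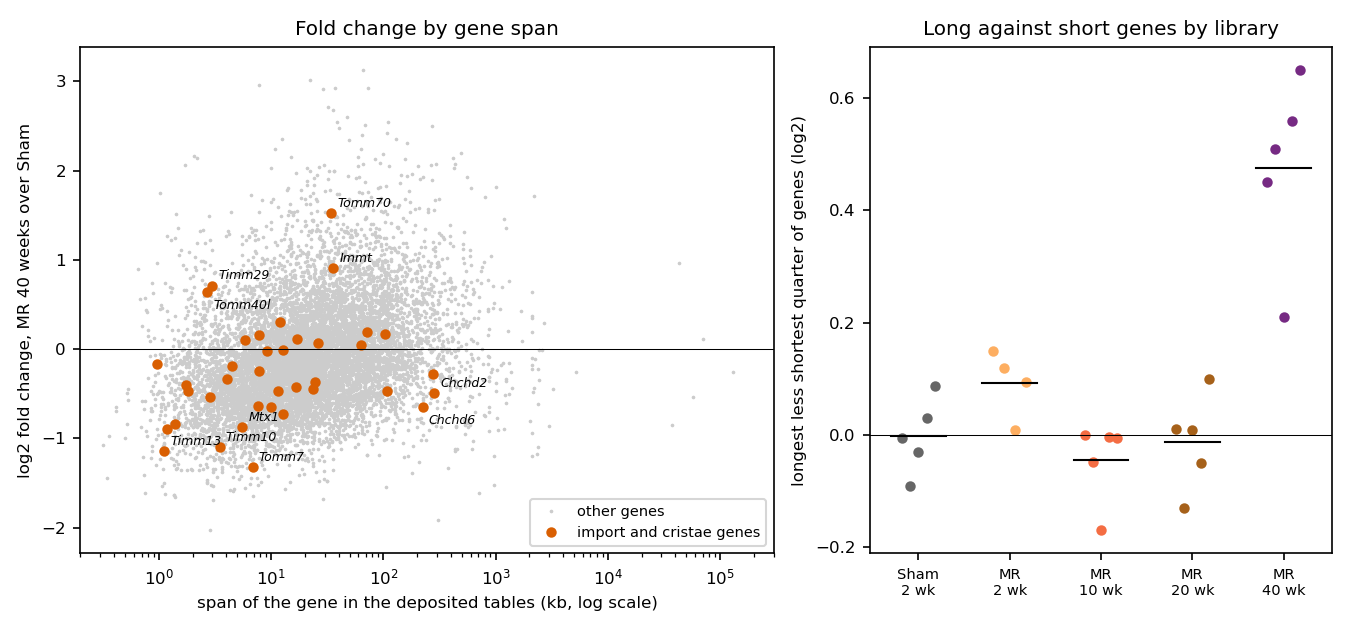
Left, log2 fold change at MR 40 weeks over Sham against gene span on a log axis, with the 38 genes in orange and the other tested genes in grey. Right, the median level of the longest of 4 bins of genes by span less that of the shortest in each library (points, with group means as lines); the 5 libraries of MR 40 weeks lie between 0.21 and 0.65 and the others between -0.17 and 0.15.

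Scaling shifted the balance of rises and falls. Median-ratio rescaling moved the median of all genes at 40 weeks to -0.01, and the share of rises among all calls to 52.1%, against 34.5% as the values were deposited. Under it 5 members rose, with Tomm40 the added one, and 12 fell (31.6%, against 21.8% of all genes), and the members' median was -0.20. With edgeR on recovered reads 4 members rose and 10 fell (26.3%, against 20.8% of all genes; 4603 genes passed), and with DESeq2 4 rose and 16 fell (42.1%, against 23% of all genes; 4912 genes passed). A set of 14 members kept its calls under all 18 alternatives in which each could be tested: the 4 that rose, and Tomm7, Tomm20, Timm8b, Timm9, Timm10, Timm13, Pam16, Mtx1, Chchd1 and Chchd6.

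Other genes of the same processes were set beside the members at 40 weeks. Of 16 measured import partners that are not members, 2 rose and 6 fell (median -0.13), near the 16.3% and 30.9% of all genes (median -0.15). Hspa9, the Hsp70 of the import motor, averaged 318 ± 74.1 normalised counts in MR and 175 ± 64.2 in Sham hearts (0.92 ± 0.25, adjusted p = 0.00772), and Pitrm1, which degrades cleaved presequences, rose by 0.57 ± 0.15 (adjusted p = 0.00768). Romo1, a small inner membrane protein, fell most (-0.95 ± 0.16, adjusted p = 0.000458), followed by Dnlz, which keeps that Hsp70 soluble (-0.77 ± 0.16), and Hspe1, the lid of the matrix folding chamber (-0.61 ± 0.16). Dnajc15 and Grpel2, cochaperones of the motor, fell by 0.53 ± 0.14 and by 0.50 ± 0.13, and Gfer by 0.37 ± 0.12.

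Of 14 measured cristae and inner membrane partners, 6 rose and 4 fell (median 0.31), against 16.3% and 30.9% of all genes (median -0.15). Letm1, an inner membrane ion exchanger protein, averaged 37.5 ± 9.07 in MR and 16.9 ± 4.09 in Sham hearts (1.10 ± 0.19, adjusted p = 0.000615). Mfn2, an outer membrane fusion protein, averaged 267 ± 29.6 in MR and 133 ± 51.6 in Sham hearts (1.10 ± 0.25, adjusted p = 0.00273). Opa1, which fuses the inner membrane and narrows cristae, rose by 0.90 ± 0.19 (adjusted p = 0.00197), and the proteases Spg7 (0.83 ± 0.18) and Yme1l1 (0.67 ± 0.18) and the fusion protein Mfn1 (0.60 ± 0.18) rose too. Minos1, which encodes a small MICOS subunit, averaged 103 ± 28.3 in MR and 221 ± 27.7 in Sham hearts (-1.12 ± 0.17, adjusted p = 0.00033). Stoml2, Phb and Atad3a, scaffold proteins of the inner membrane, fell by 0.49 ± 0.13, 0.42 ± 0.14 and 0.38 ± 0.14.

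Most of the nuclear genes of complex I and of the mitochondrial ribosome fell in the same comparison. Of 44 genes with symbols starting Nduf, 3 rose and 33 fell (median -0.71), and of 69 starting Mrpl or Mrps, 2 rose and 42 fell (median -0.55), against 4 and 19 of the 38 members (median -0.35). These counts were set side by side without a test of their difference. Cardiomyocyte markers had 2 rises and 5 falls among 14 (median -0.23), endothelial markers 1 and 5 among 10, fibroblast markers 1 and 5 among 10, and macrophage markers 0 and 4 among 9. Smooth muscle and pericyte markers had 2 rises and 3 falls among 10, atrial 1 and 1 among 6, adipocyte 0 and 2 among 3, lymphocyte 0 and 1 among 3, skeletal muscle 1 and 1 among 3, and erythroid none among 6. Of all genes tested, 16.3% rose and 30.9% fell. The summed cardiomyocyte level was 41752 to 61488 in MR at 40 weeks and 48218 to 58478 in Sham hearts, and the summed macrophage level was 64.6 to 148 in MR at 40 weeks and 102 to 218 in Sham hearts. The part of these in the members' changes was not tested.

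**Figure D5:**
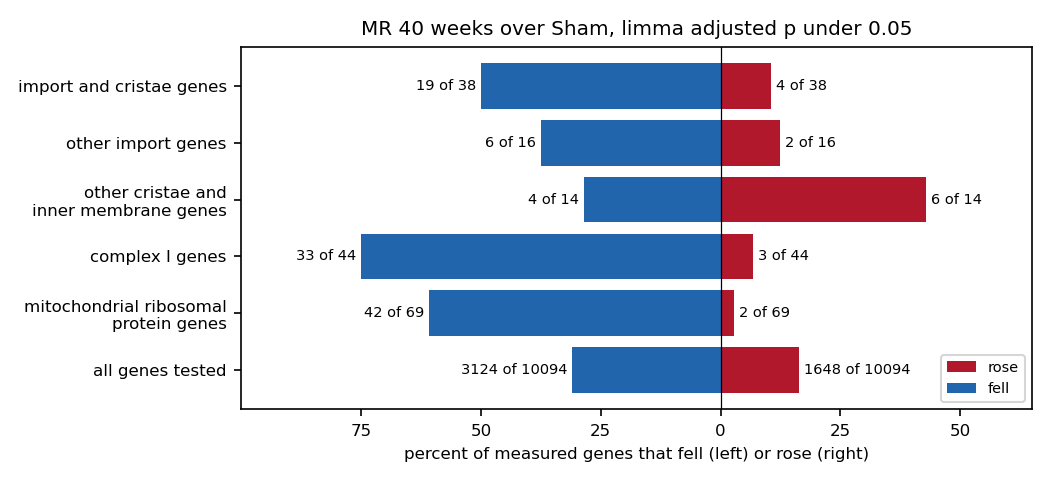
Share of measured genes in each list that fell (left, blue) or rose (right, red) at MR 40 weeks over Sham, with the counts beside the bars (limma, adjusted p under 0.05). The import and cristae genes have 19 of 38 falls, less as a share than complex I (33 of 44) and more than all genes (3124 of 10094), and the other cristae and inner membrane genes have more rises (6) than falls (4).

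Within-library log2 ratios of (value + 1) between paralogs or partner subunits were compared at 40 weeks for 8 pairs by a two-sided exact permutation test. Its smallest p is 0.00794 with 5 libraries against 5, so a single fully separated pair cannot reach an adjusted p below 0.0635 over 8 pairs, and missing the threshold says little of such a pair. None of the 8 passed, and 2 passed without Sham library 4. Plain ratios, which hold no pseudocount and do not depend on how a library was scaled, were added after seeing the data, and none of the 8 passed with them either. The log2 ratio of Timm8b to Timm8a1 averaged 1.67 ± 0.17 in MR and 2.17 ± 0.18 in Sham hearts (SD, n = 5 each), with the groups apart (1.43 to 1.90 against 1.99 to 2.42), and its exact p was 0.00794 and its adjusted p 0.0635. The log2 ratio of Mtx2 to Mtx1 averaged 1.64 ± 0.34 in MR and 0.72 ± 0.69 in Sham hearts (exact p = 0.0317, adjusted p = 0.127), and its plain ratio differed by 1.04 (exact p = 0.0238, adjusted p = 0.0847). The Timm17a to Timm17b ratio averaged 3.08 ± 0.27 in MR and 3.08 ± 0.10 in Sham hearts (exact p = 1), and the Chchd10 to Chchd2 ratio 0.41 ± 0.17 in MR and 0.40 ± 0.25 in Sham hearts (exact p = 0.905). The ratios of Tomm40l to Tomm40 (difference 0.33, exact p = 0.119, and 0.53, exact p = 0.0317, adjusted p = 0.0847, as a plain ratio), Chchd6 to Chchd3 (-0.37, exact p = 0.0952), Pmpcb to Pmpca (-0.16, exact p = 0.476) and Apool to Apoo (0.024, exact p = 0.937) did not pass either.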

How the data were processed

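The authors deposited 4 tables of linear normalised counts (unit signal), each holding 1 MR time and the same 5 Sham libraries; Partek and build rn6 are named in the submitters' processing notes. The sources used here do not give the aligner, annotation, strand setting or scaling method. The values are reads divided by a single factor per library: at least 96% of low values were whole reads (tolerance 0.1 read), and reads were recovered from them. Limma 3.58.1 (R 4.3.3) tested log2(value + 1) with a mean trend over genes with a mean of at least 1, adjusted by Benjamini-Hochberg over all of them, in the table of each MR time, since the values are not raw counts as a count test needs. MR times were compared in a single fit of 24 libraries after median-ratio rescaling. A log2 fold change on this scale understates the change of low genes. Alternatives were a pseudocount of 0.5, no filter, a minimum mean of 5, median-ratio rescaling, library weights, other fits, edgeR 4.0.16 and DESeq2 1.42.0 on recovered reads, and leaving out each library. The steps were tested on simulated data.

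Replicates within a group differed far beyond counting error (chi-square per gene 10.5 to 112), so none was counted as a repeat of another; this does not show that each came from a separate animal. Genes named are, per role, the 3 rises and 3 falls with the smallest p, and both genes of each pair. Every partner that passed at 40 weeks is named too, although up to 6 per list had been planned. Where no member passed, the 3 smallest p and the ends of the range are named, and the rest are given by role. The members, the gene lists and the comparisons were chosen with earlier results of these data known. The gene span, the promoter motifs and the comparison of the 40-week libraries with all others were chosen after seeing the data. Promoters were read from RefSeq (GRCr8).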

Additional observations from a re-analysis of the deposited data

Results flagged for a closer look

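Of 190 sets of libraries (38 genes in 5 groups), 7 held a library far from the others of its group, where chance flags about 1 in 20. Tomm40 had 5.57 normalised counts in MR 2 weeks library 1, against 16 to 16.5 in the other 3. MR 20 weeks library 1 was lowest for Apoo (22, against 31 to 33.9) and Samm50 (195, against 231 to 244), and MR 20 weeks library 5 was highest for Tomm70 (14.3, against 5.28 to 7.24). MR 40 weeks library 4 was highest for Mtx2 (31.8, against 19.6 to 22.4) and Pmpca (78.8, against 57.8 to 63.5). Sham library 1 was highest for Tomm20 (102, against 67.8 to 77.2). Values are on the common scale of the 24 libraries.

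The difference from Sham at 40 weeks differed from that at 20 weeks in 22 of the 38 genes, as tested directly by MR 40 weeks against MR 20 weeks (limma, adjusted p under 0.05), with 4 higher and 18 lower at 40 weeks. Of all 9983 genes tested, 21.3% were higher and 17.6% lower in the same comparison.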

How the results depend on the processing

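The members passing against Sham numbered 0 at 2, 10 and 20 weeks under every alternative run. At 40 weeks the 23 became 14 with edgeR on recovered reads; the 19 falls became 12 under median-ratio rescaling and 10 with edgeR, and the rises stayed between 3 and 5, the 3 because a minimum mean of 5 removes Tomm40l. Leaving out 1 library gave 19 to 25 members passing (4 rises and 15 to 21 falls). For MR 40 weeks the counts without 1 library were 14 to 18 against MR 2 weeks, 15 to 18 against MR 10 weeks and 21 to 24 against MR 20 weeks. For MR 20 weeks against MR 2 weeks the 8 became 1 in a fit of the 2 groups alone and 2 to 10 without 1 library. Of the paralog pairs, 0 passed, and 0 to 2 did without 1 library, the 2 without Sham library 4; with plain ratios, added after seeing the data, 0 passed. No named value changed sign in 1436 recomputed values, and 115 lost their call; where no construction of the alternative shows it, the cause was not tested. No paired analysis was possible because the replicate numbers carry no shared animal, litter or day. Precision is limited most for Tomm40l, Chchd5 and Timm10b, with 14, 21 and 34 reads in their lowest libraries.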
